A study of Mus musculus with 6 samples.

Results

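The 47 genes described here encode the machinery that licenses, fires and copies replication origins, the enzymes that supply nucleotides, the E2F transcription factors and the proteins that repackage new chromatin. They were taken from a list of symbols, and each symbol was matched to the RefSeq accession of its probes. All 47 had a probe on the array, and 46 of them passed the filter on dim probes, among 23774 genes and unnamed transcripts that were tested. The samples were 6 Agilent 1-colour arrays of NIH3T3 cells, an established line of mouse embryonic fibroblasts, grown in medium with 2% fetal serum. The control group (3 arrays) had been infected with an empty pCX4bsr retroviral vector, and the GGCT group (3 arrays) with the same vector carrying GGCT, gamma-glutamylcyclotransferase, an enzyme of glutathione breakdown. The study asked what overexpression of GGCT does to gene expression. Its labels describe stable expression without saying whether the cells were a clone or a mixed population, whether the infection was repeated, or from which species the GGCT came. The design text speaks of 3 independent experiments, which the titles number 1 to 3, and p-values here rest on how far those experiments differ.

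A cell duplicates its genome once per cycle by first loading the MCM helicase onto origins in G1, with the help of the origin recognition complex, Cdc6 and Cdt1, and then activating it in S phase through the Cdc7 and cyclin E kinases. Activated helicase joins Cdc45 and the GINS complex, and DNA polymerases, the sliding clamp and its loader follow. Most of these genes are transcribed late in G1 when E2F factors are freed from the retinoblastoma proteins, and fibroblasts that leave the cycle lower them together. In a bulk RNA sample a larger share of cells in S phase and more RNA per cycling cell cannot be told apart.

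The share of probes detected well above background ranged from 54.6% to 61.7% per array, and slide 1 carried the arrays numbered 1 of both groups and slide 2 those numbered 2 and 3. The endogenous or introduced transcript seen by the Ggct probe had levels of -0.57, -0.72 and -0.66 in control replicates 1, 2 and 3, and of -0.14, 0.20 and -0.16 in the GGCT replicates. These values, like all levels below, are log2 intensities relative to the 75th percentile of the array. The difference of 0.62 ± 0.12 (SE, n = 3 against 3) passed the limma test (adjusted p = 0.0111), but was 0.67 (limma adjusted p = 0.108) once the pair of arrays numbered 3 was left out and 0.47 (limma adjusted p = 0.0755) once the pair numbered 2 was. It also missed the threshold when dim probes were kept. All 8 fibroblast markers were well above background on all arrays. The epithelial markers Epcam and Cdh1, the endothelial markers Kdr, Tek and Emcn, the leukocyte markers Ptprc and Adgre1 and the muscle markers Myog and Ckm did not rise well above background on a single array. Other markers of these cell types were detected. The leukocyte markers Cd68, Itgam and Cd3e were so on all arrays, and the muscle markers Myod1 and Des on at least 1 array. The endothelial markers Pecam1 and Cdh5 were detected on all GGCT arrays, and 1 of them on all control arrays. The log2 of the summed level of the epithelial list, in which Krt14 and Cldn4 were detected, lay at 3.77 to 4.01 in control and 4.23 to 4.46 in GGCT arrays. It lay at -2.78 to -2.47 and -2.03 to -1.82 for the endothelial list, at 4.58 to 5.03 and 4.55 to 4.86 for the leukocyte list and at -3.44 to -3.19 and -4.29 to -3.10 for the muscle list. For the 8 fibroblast markers it lay at 10.2 to 10.5 and 9.79 to 10.1, and the part of these differences in the results was not tested.

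Replication genes were higher in the cells that carry GGCT. Of the 46 tested, 31 rose and 0 fell, which is 67.4% higher, where 17.5% of all genes and transcripts tested were called higher and 17.3% lower (limma, Benjamini-Hochberg adjusted p under 0.05). At an unadjusted p under 0.05 no member was lower either. The median difference over the 46 was 0.58 on the log2 scale, or 1.49-fold, against 0.02 over all genes tested. The sizes were moderate, and 4 members differed by at least 2-fold. On 36 members every GGCT array lay above every control array, where 25.4% of all tested features did so, and on 1 member, Gins4, every GGCT array lay below (24.0% of all tested). For these 37 genes an exact 2-sided permutation test gives p = 0.1, which is the lower limit with 3 against 3 arrays. When the fit took the replicate number as a block, 35 members rose, 0 fell, and 27.3% of all tested features were then called higher and 26.1% lower. The count differed with the arrays that were left out. It was 27 when the pair of arrays numbered 1 was left out, with 19.1% of all tested features called higher. It was 12 when the pair of arrays numbered 2 was left out, with 5.46% of all tested features called higher. Without the pair numbered 3 it was 7 of 47 tested, with 2.78% of all tested features called higher. Among the 7 is Ccne2, which entered the test there only through the GGCT arrays, so its call adds no support. The members' median was 0.51 without the pair numbered 2 and 0.63 without that numbered 3.

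**Figure D1:**
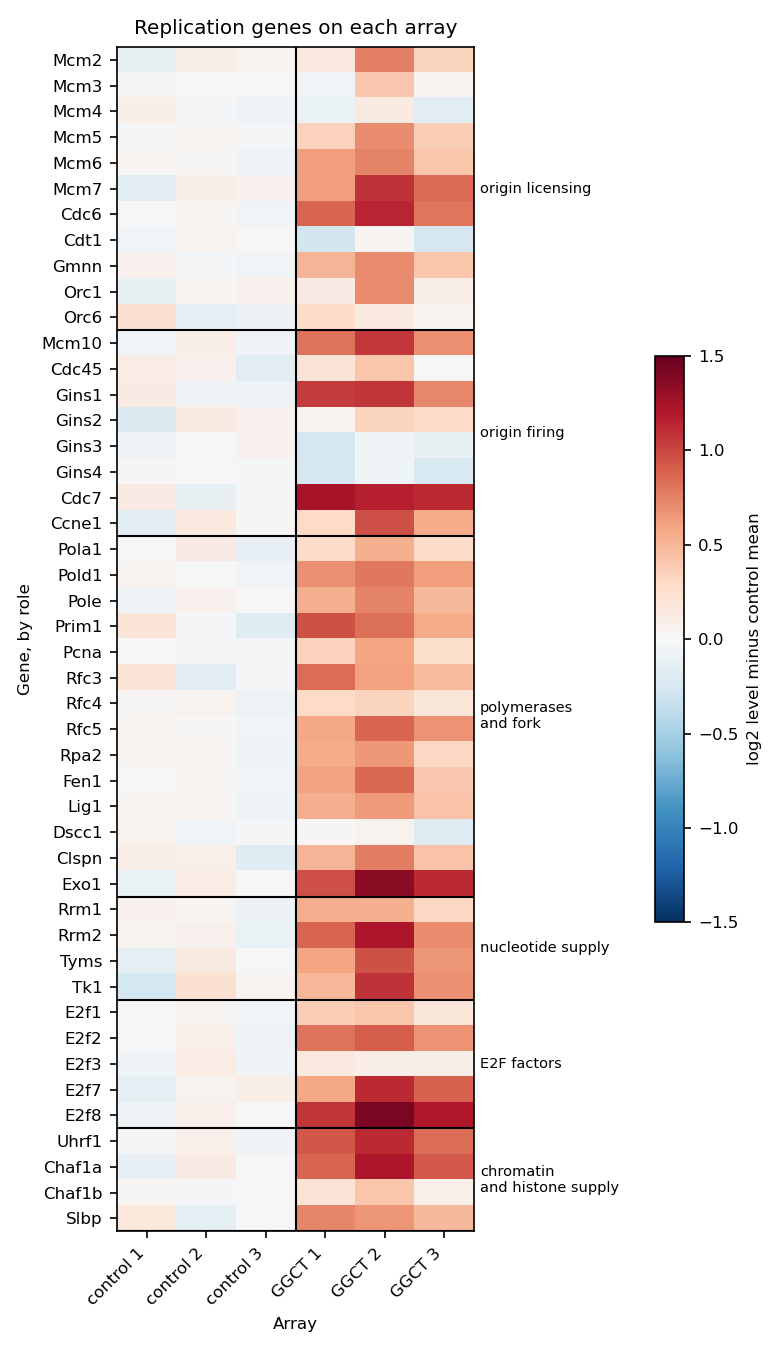
Level of the 46 tested replication genes on each of the 6 arrays, as the log2 difference from the gene's mean over the 3 control arrays (colour), with genes in rows by role and arrays in columns. The GGCT arrays are red for most genes and deepest for replicate 2, while Gins3, Gins4 and Cdt1 are pale blue on the GGCT arrays of replicates 1 and 3.

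Among the 11 genes of origin licensing, 5 rose and 6 did not pass the test, with a median difference of 0.41. Cdc6, the ATPase that brings the helicase to the origin, stood at 0.05, 0.07 and 0.01 in control and at 0.92, 1.19 and 0.85 in GGCT arrays, a rise of 0.94 ± 0.11 or 1.92-fold (limma adjusted p = 0.00172). The control arrays lay close together (SD 0.03) and all GGCT arrays lay far above them. Mcm7, a helicase subunit, read 3.72, 3.997 and 3.96 in control and 4.52, 4.97 and 4.75 with GGCT (0.85 ± 0.14, limma adjusted p = 0.00642). Mcm6, another subunit, read 4.87, 4.86 and 4.79 against 5.46, 5.59 and 5.26 (0.60 ± 0.11, limma adjusted p = 0.00793). Gmnn encodes geminin, which binds Cdt1 and blocks a second round of loading. It read 3.10, 3.01 and 3.00 in control and 3.54, 3.74 and 3.45 with GGCT (0.54 ± 0.10, limma adjusted p = 0.00949). For these 4 genes the groups did not overlap, and the differences on slides 1 and 2 were 0.87 and 0.98 for Cdc6, 0.80 and 0.88 for Mcm7, 0.59 and 0.60 for Mcm6 and 0.44 and 0.59 for Gmnn. Mcm5 rose by 0.48 ± 0.12 (limma adjusted p = 0.0252).

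The other subunits of the helicase did not pass. Mcm2 differed by 0.41 ± 0.17 (limma adjusted p = 0.115), which passed once the replicate number entered as a block (limma adjusted p = 0.0334). Mcm3 differed by 0.14 (95% interval -0.19 to 0.46) and Mcm4 by -0.04 (-0.31 to 0.22), with overlapping groups. Mcm4, read by 1 probe, turned to 0.03 with quantile normalization, and its groups overlapped at 4.89, 4.78 and 4.75 against 4.71, 4.95 and 4.64. Cdt1, the loading factor that geminin inhibits, went against most of the group, with levels of 4.26, 4.34 and 4.30 in control and 4.02, 4.34 and 4.05 with GGCT. Its difference of -0.16 ± 0.11 did not pass (limma adjusted p = 0.302, interval -0.43 to 0.10). The origin recognition subunits Orc1 (0.31, limma adjusted p = 0.240) and Orc6 (0.15, limma adjusted p = 0.436) did not pass either. Whether the 6 helicase subunits differ from one another was not tested. Mcm5 missed the threshold without GGCT replicate 3 or any 1 control array (0.46 to 0.53, limma adjusted p = 0.0528 to 0.0884). When either pair numbered 2 or 3 was left out, Mcm5, Mcm6, Mcm7 and Gmnn missed it, at differences from 0.38 to 0.89 (limma adjusted p = 0.0592 to 0.169), and Cdc6 did not.

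Origin firing genes split in a similar way, with 4 of 8 tested members higher, 0 lower and a median difference of 0.41. Cdc7, the kinase that phosphorylates the loaded helicase, had the second largest difference of all members. It read 2.11, 1.87 and 1.96 in control and 3.22, 3.15 and 3.10 with GGCT, a 2.26-fold rise (1.18 ± 0.09, limma adjusted p = 0.000466). The GGCT arrays of Cdc7 lay within 0.06 (SD) of their mean, and a further probe of the gene gave 1.27. Gins1, a GINS subunit, read 0.90, 0.72 and 0.70 against 1.83, 1.84 and 1.498 (0.95 ± 0.13, limma adjusted p = 0.00269). Mcm10, which helps to open the origin, read 1.87, 2.02 and 1.87 against 2.74, 2.98 and 2.61 (0.86 ± 0.12, limma adjusted p = 0.00325). Ccne1, cyclin E1, which activates Cdk2 at S-phase entry, read 2.32, 2.63 and 2.51 against 2.79, 3.45 and 3.04 (0.61 ± 0.19, limma adjusted p = 0.0481). For all 4 genes the groups did not overlap, but the GGCT arrays of Ccne1 were spread over an SD of 0.33.

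The other 3 GINS subunits gave other values than Gins1. Gins2 differed by 0.22 (interval -0.10 to 0.54, limma adjusted p = 0.248), a difference that passed in the blocked fit (limma adjusted p = 0.0253). Gins3 read 5.68, 5.75 and 5.80 in control and 5.49, 5.69 and 5.63 with GGCT, a difference of -0.14 ± 0.09 (limma adjusted p = 0.290). Gins4 read 2.70, 2.68 and 2.65 against 2.42, 2.62 and 2.446, a difference of -0.18 ± 0.09 with groups that did not overlap (limma adjusted p = 0.158), while its further probe gave 0.07. The interval of Gins1, 0.64 to 1.25, lay above those of Gins2, Gins3 (-0.36 to 0.08) and Gins4 (-0.40 to 0.03), and the difference between subunits was not tested. Cdc45, the remaining helicase partner, differed by 0.21 (interval -0.13 to 0.54, limma adjusted p = 0.301). Ccne2, cyclin E2, was the member that was not tested in the reported fit. No control array measured it above background and GGCT replicates 1 and 2 did, at -4.67 and -4.65. GGCT replicate 3 read -5.15 and was not above background, so no fold is given. Ccne1 lost its call without GGCT replicate 2, GGCT replicate 3 or any 1 control array (0.43 to 0.68, limma adjusted p = 0.0823 to 0.121), and also without the pair numbered 2 (limma adjusted p = 0.121) or 3 (limma adjusted p = 0.240). Gins1 lost it without the pair numbered 2 (0.86, limma adjusted p = 0.0599) and Mcm10 without that numbered 3 (0.91, limma adjusted p = 0.0546).

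**Figure D2:**
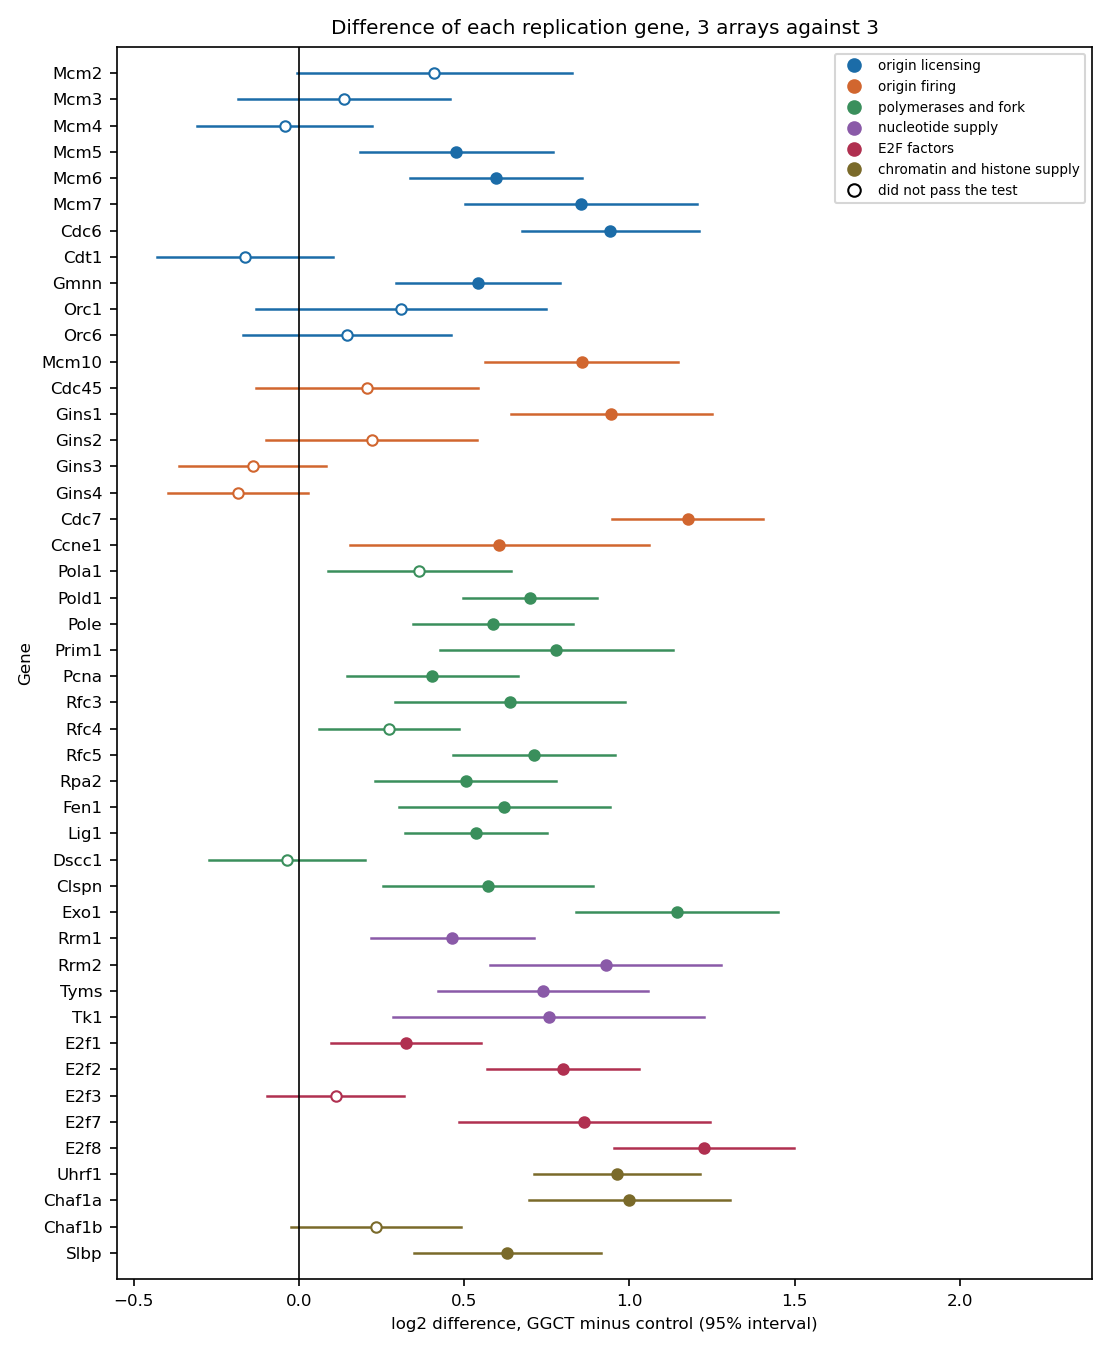
Difference of each tested replication gene between 3 GGCT and 3 control arrays, on the log2 scale (x axis), with points for the difference, bars for its 95% interval from limma and colours for the role. Filled points passed the test, and the intervals of Cdc7, Exo1, E2f8, Uhrf1 and Chaf1a lie well to the right of 0.

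Most polymerases and proteins of the fork rose. Of 14 members 11 rose, 0 fell and 3 did not pass, and the median difference was 0.58, with 13 groups that did not overlap. Exo1, an exonuclease of mismatch repair and resection, read 1.44, 1.65 and 1.54 in control and 2.51, 2.90 and 2.67 with GGCT, a 2.21-fold rise (1.14 ± 0.13, limma adjusted p = 0.00137). Pold1, the catalytic subunit of polymerase delta, read 2.07, 2.03 and 1.98 against 2.72, 2.82 and 2.65 (0.70 ± 0.08, limma adjusted p = 0.00188). Rfc5, a subunit of the clamp loader, read 3.40, 3.39 and 3.33 against 3.96, 4.25 and 4.05 (0.71 ± 0.10, limma adjusted p = 0.00338). Lig1, the ligase that seals Okazaki fragments, read 3.58, 3.58 and 3.49 against 4.09, 4.19 and 3.98 (0.54 ± 0.09, limma adjusted p = 0.00591). In each of these 4 genes the 3 control arrays lay close together and the GGCT arrays above them, with replicate 2 highest.

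Another 7 fork genes rose by 0.40 to 0.78. They were the primase subunit Prim1 (0.78), the clamp loader subunit Rfc3 (0.64), the flap endonuclease Fen1 (0.62), the polymerase epsilon subunit Pole (0.59), the checkpoint mediator Clspn (0.57), the single-strand binding subunit Rpa2 (0.50) and Pcna, the sliding clamp itself (0.40, limma adjusted p = 0.0295). A further probe of Clspn gave -0.01, with an SE of 0.35, and with the mean of its probes Clspn differed by 0.28 (limma adjusted p = 0.266). Pola1, the catalytic subunit of polymerase alpha (0.36, limma adjusted p = 0.0513), and Rfc4 (0.27, limma adjusted p = 0.0547) lay just outside the threshold and passed in the blocked fit (limma adjusted p = 0.0103 and 0.0144). Dscc1, part of an alternative clamp loader, went against the group with a difference of -0.04 (interval -0.27 to 0.20) and levels of 0.17, 0.07 and 0.10 in control against 0.14, 0.17 and -0.08.

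Calls of fork genes were sensitive to single arrays. Pcna missed the threshold without GGCT replicate 1, GGCT replicate 2 or any 1 control array (0.31 to 0.43, limma adjusted p = 0.0509 to 0.102). Rfc3 and Rpa2 missed it without control replicate 2 or 3 (limma adjusted p = 0.0541 to 0.0713), and Fen1 and Clspn without control replicate 3 (limma adjusted p = 0.0579 and 0.0678). Pcna, Rpa2 and Fen1 also missed it on slide 2 alone (limma adjusted p = 0.0530 to 0.0683). With the pair numbered 2 left out, 3 fork genes (Exo1, Pold1 and Rfc5) were called, where 5.46% of all tested features were called higher. With that numbered 3 left out 0 were, where 2.78% of all tested features were called higher. In the latter setting Exo1 differed by 1.15 (limma adjusted p = 0.0514), and fork genes that had been called differed by 0.47 to 1.15.

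Nucleotide supply was the role group in which all tested members rose, 4 of 4, with a median difference of 0.75. Rrm2, the regulated subunit of ribonucleotide reductase, which makes deoxyribonucleotides, read 3.82, 3.85 and 3.68 in control and 4.65, 4.99 and 4.50 with GGCT, a 1.90-fold rise (0.93 ± 0.14, limma adjusted p = 0.00469). Its partner Rrm1 read 2.95, 2.92 and 2.80 against 3.44, 3.43 and 3.20 (0.46 ± 0.10, limma adjusted p = 0.0158). Tyms, thymidylate synthase, read 3.06, 3.32 and 3.19 against 3.78, 4.15 and 3.86 (0.74 ± 0.13, limma adjusted p = 0.00751), and a further probe gave 0.76. Tk1, the thymidine kinase of the salvage route, read 3.27, 3.76 and 3.57 against 4.03, 4.61 and 4.22 (0.76 ± 0.19, limma adjusted p = 0.0268), and its further probe gave 0.70. The groups overlapped in none of the 4, and Tk1 was lowest on replicate 1 and highest on replicate 2 in both groups. Rrm1 missed the threshold without GGCT replicate 2, control replicate 2 or control replicate 3 (0.42 to 0.48, limma adjusted p = 0.0516 to 0.0709). Tk1 missed it without GGCT replicate 2 or 3 or control replicate 1 or 3 (0.59 to 0.79, limma adjusted p = 0.0632 to 0.0770). Leaving out the pair numbered 2 kept the calls of Rrm2 and Tyms (5.46% of all tested features called higher). Leaving out that numbered 3 kept none of the 4 (2.78%), at differences of 0.50 to 0.99 (limma adjusted p = 0.0541 to 0.174).

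Of the 5 E2F factors 4 rose, and the atypical family members, which repress E2F targets, had the largest values. E2f8 read 0.59, 0.75 and 0.66 in control and 1.74, 2.07 and 1.86 with GGCT. This 2.34-fold rise was the largest of all members (1.23 ± 0.11, limma adjusted p = 0.000737). E2f7 read 1.42, 1.63 and 1.66 against 2.15, 2.69 and 2.46 (0.86 ± 0.16, limma adjusted p = 0.00820). A further, dimmer probe of E2f7 gave 0.10 ± 0.20, and the mean of its probes differed by 0.48 and did not pass. Among the activators, E2f2 read 0.30, 0.38 and 0.23 against 1.12, 1.21 and 0.98 (0.80 ± 0.09, limma adjusted p = 0.00184). E2f1 read 1.54, 1.60 and 1.51 against 1.92, 1.97 and 1.73 (0.32 ± 0.09, limma adjusted p = 0.0394), a difference that missed the threshold without GGCT replicate 1 or 2 or any 1 control array (0.28 to 0.35, limma adjusted p = 0.0886 to 0.139). E2f3 differed by 0.11 (interval -0.10 to 0.32, limma adjusted p = 0.369), with groups that overlapped. The interval of E2f8, 0.95 to 1.498, lay above that of E2f1, 0.10 to 0.55, and the difference between factors was not tested. On slide 2 alone E2f1 missed it too (0.30, limma adjusted p = 0.105). When the pair numbered 2 or 3 was left out, E2f7 (limma adjusted p = 0.0727 and 0.105) and E2f1 (limma adjusted p = 0.197 and 0.177) missed the threshold, and E2f2 and E2f8 did not.

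The promoters of the members, those that rose and those that did not pass, were searched for 4 of the octamers that E2F factors bind. RefSeq promoters of build GRCm38.p6, 250 bases before to 50 bases after the start, were at hand for 38 of the 47 members, with 46 promoters in all. The octamers TTTCCCGC, TTTGGCGC, TTTCGCGC and TTTGCCGC were counted on both strands. Other forms of the site were not counted, so a promoter without a match may still hold one. At least 1 match was found in 17 of 46 member promoters (37%), and in 2.26% of all 32851 promoters. A match to these octamers did not sort the members by their difference. Of 17 members with a match 11 rose, with a median difference of 0.57, and of 21 without one 16 rose, with a median of 0.62. The windows below lie before the start, with up to 30 bases on either side of a match, and the capitals mark the octamers. The first 5 belong to genes that rose and the last 4 to genes that did not pass the test.
Cdc6 (chr11:98907983-98908050, plus strand): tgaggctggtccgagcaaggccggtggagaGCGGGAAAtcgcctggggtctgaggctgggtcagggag
Mcm5 (chr8:75109326-75109397, plus strand): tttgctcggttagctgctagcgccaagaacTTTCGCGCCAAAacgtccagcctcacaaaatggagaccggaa
Mcm6 (chr1:128359715-128359845, minus strand): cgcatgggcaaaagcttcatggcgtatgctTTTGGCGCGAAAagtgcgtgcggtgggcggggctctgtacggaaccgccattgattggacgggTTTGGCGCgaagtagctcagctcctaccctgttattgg
Uhrf1 (chr17:56304098-56304165, plus strand): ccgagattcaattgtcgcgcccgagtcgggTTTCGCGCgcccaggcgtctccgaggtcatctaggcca
E2f7 (chr10:110745211-110745278, plus strand): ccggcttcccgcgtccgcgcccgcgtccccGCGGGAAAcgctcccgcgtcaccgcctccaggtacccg
Orc1 (chr4:108579397-108579453, plus strand): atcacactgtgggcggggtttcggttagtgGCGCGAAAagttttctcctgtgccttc
Gins3 (chr8:95633488-95633555, plus strand): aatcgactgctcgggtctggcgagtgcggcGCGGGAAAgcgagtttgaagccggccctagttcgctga
E2f3 (chr13:29986064-29986104, minus strand): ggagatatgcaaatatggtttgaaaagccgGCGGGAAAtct
Pola1 (chrX:93632256-93632323, minus strand): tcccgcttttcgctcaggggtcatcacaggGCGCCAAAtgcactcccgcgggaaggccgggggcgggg

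In Mcm5 and Mcm6 a pair of octamers overlapped on opposite strands into the run TTTGGCGCGAAA, read on the strand opposite to the gene in Mcm5. This run was found in 4 of 32851 promoters, and it is a description of letters, not of a bound site. The CCAAT box (CCAAT, both strands), bound by NF-Y, was present in 28 of 46 member promoters (60.9%) and in 37.4% of all promoters. The hexamer TTTGAA, a cell cycle homology element of late cell cycle genes, was present in 9 of 46 (19.6%) and in 17.9% of all. Members with this hexamer had a median difference of 0.52 (n = 8) and those without it 0.60 (n = 30).

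Of the 4 genes of chromatin and histone supply 3 rose, with a median difference of 0.80. Chaf1a, the large subunit of the assembly factor that deposits histones behind the fork, read 1.498, 1.74 and 1.63 in control and 2.49, 2.83 and 2.55 with GGCT, a 2.00-fold rise (1.00 ± 0.12, limma adjusted p = 0.00220). A dimmer probe of Chaf1a, detected on all arrays, gave -0.10 ± 0.22, and 2 more were too dim on every array to be tested. Uhrf1, which brings the maintenance methyltransferase to hemimethylated DNA, read 3.48, 3.59 and 3.45 against 4.44, 4.63 and 4.35 (0.96 ± 0.10, limma adjusted p = 0.00127), and its further probe gave 1.08. Slbp, which binds the stem-loop of histone transcripts, read 0.00, -0.30 and -0.16 against 0.58, 0.51 and 0.33 (0.63 ± 0.12, limma adjusted p = 0.00874). Chaf1b, the partner of Chaf1a, read 3.26, 3.21 and 3.25 against 3.45, 3.65 and 3.32 (0.23 ± 0.11, limma adjusted p = 0.142), with groups that did not overlap. Slbp missed the threshold when the pair numbered 2 (0.54, limma adjusted p = 0.102) or 3 (0.70, limma adjusted p = 0.0907) was left out, and Chaf1a without the latter pair (1.04, limma adjusted p = 0.0580).

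**Figure D3:**
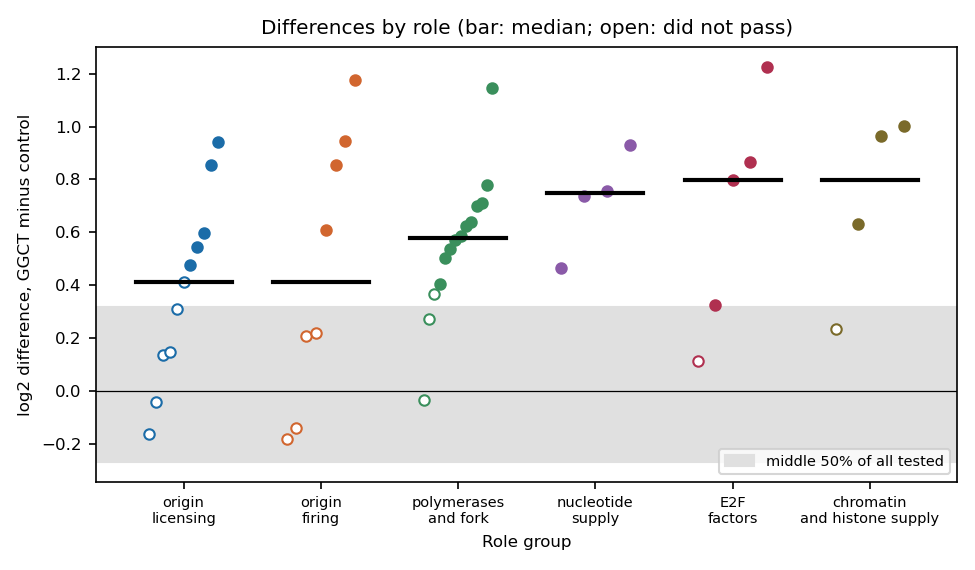
Log2 differences of the 46 tested genes by role group (y axis, GGCT minus control), with a bar at the median of each group, open points for genes that did not pass and a grey band for the middle 50% of all tested features. The medians are 0.41 for licensing, 0.41 for firing, 0.58 for the fork, 0.75 for nucleotide supply, 0.80 for E2F factors and 0.80 for chromatin and histone supply, and every group but nucleotide supply holds open points.

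Set side by side, 5 of 11 licensing genes, 4 of 8 firing genes, 11 of 14 fork genes, 4 of 4 nucleotide genes, 4 of 5 E2F factors and 3 of 4 chromatin genes rose, against a background of 17.5%. The members with a negative difference, Mcm4, Cdt1, Gins3, Gins4 and Dscc1, belonged to licensing, firing and the fork, and no difference of these 5 passed the test. The role groups were small and the differences between them were not tested. All role groups had medians above 0 on both slides, for licensing 0.26 on slide 1 and 0.49 on slide 2, and for chromatin and histone supply 0.77 and 0.81.

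**Figure D4:**
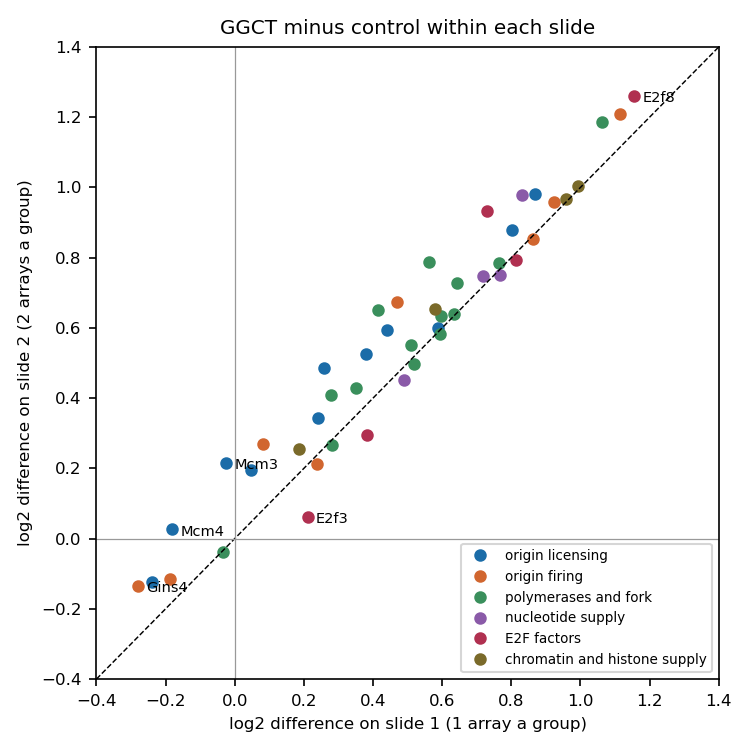
Log2 difference of each tested replication gene on slide 1 (x axis, 1 array a group) against slide 2 (y axis, 2 arrays a group), with colours for the role and a dashed line where both are equal. Of 46 genes 40 lie above 0 on both slides, where 10535 of all 23774 tested features do. Mcm3 and Mcm4 lie below 0 on slide 1 and above it on slide 2.

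Many members also ranked the replicates alike, and how all tested features ranked them was not counted. Within the GGCT group replicate 2 was the highest array for 39 of 46 members and the lowest for 0, and replicate 3 was the lowest for 29 and the highest for 0. The median distance of the members from their control mean was 0.53 on GGCT replicate 1, 0.73 on replicate 2 and 0.42 on replicate 3. Ggct also read highest on GGCT replicate 2, but lowest of the control group on control replicate 2 (-0.72). Within the control group replicate 2 was the highest for 24 members and replicate 3 the lowest for 23. The members varied less among control arrays (median SD 0.08) than among GGCT arrays (0.17), and 40 of 46 had the larger SD with GGCT, while 57.5% of all tested features did and their median SDs were 0.15 and 0.16. The deviations of same-numbered arrays from their group means were correlated across the 46 members, at 0.858, 0.594 and 0.577 for numbers 1, 2 and 3. Across all tested features these correlations were 0.731, 0.453 and 0.358, so such a correlation was not particular to the members. These correlations are a description over genes that share the arrays, and same-numbered arrays also shared a slide.

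Further genes of the pathway were read from a list of 44 other replication genes, all tested. Of these 22 rose and 2 fell, where 17.5% of all tested features rose and 17.3% fell, and the median difference was 0.36. The largest call was that of Ticrr, which couples cyclin-dependent kinase to helicase activation (1.37 ± 0.13, 2.58-fold, limma adjusted p = 0.000832). Dbf4, the regulatory subunit of Cdc7, rose by 0.99 ± 0.10 (limma adjusted p = 0.00104), Cdca5, which stabilises cohesin in S phase, by 0.95 ± 0.09 and Timeless, a fork protection protein, by 0.94 ± 0.11. The genes that fell were Pold4, the small subunit of polymerase delta (-0.60 ± 0.09, limma adjusted p = 0.00377), and Dctd, a deaminase that feeds thymidylate synthesis (-0.61 ± 0.09, limma adjusted p = 0.00415). In the blocked fit 27 rose and 4 fell (27.3% and 26.1% of all tested features). With control replicate 3 left out the counts were 13 and 2 (9.98% of all tested features higher), and with dim probes kept 12 and 2 (4.96%). With the pair numbered 2 left out they were 6 and 0 (5.46%), and with that numbered 3 left out 4 and 0 (2.78%). Pold4 and Dctd missed the threshold without either pair, and Timeless without the pair numbered 3.

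Of 21 tested regulators upstream of S phase 14 rose and 3 fell, with a median difference of 0.59. Over all tested features 17.5% rose and 17.3% fell, so the share of these regulators that fell was near the background. Among the 14 is Cdkn1c, which entered the test only through the GGCT arrays, so its call adds no support. Cdkn1c was not tested under the filter over all 6 arrays. The D-type cyclins that start G1 progression were among those that fell, Ccnd1 by 0.98 (SE 0.17, limma adjusted p = 0.00766) and Ccnd2 by 0.67 (SE 0.08, limma adjusted p = 0.00155), while Ccnd3 differed by 0.23 and did not pass. Cdkn1a, the p21 inhibitor of cyclin-dependent kinases, read 3.56, 3.04 and 3.07 in control and 2.51, 2.21 and 2.07 with GGCT, and fell by 0.96 (SE 0.19, limma adjusted p = 0.0105). In the other direction the inhibitors Cdkn2d (0.66 ± 0.07, limma adjusted p = 0.00135) and Cdkn1c rose, the latter at least 1.92-fold, since no control array measured it above background. The fitted difference of Cdkn1c was 0.35 with the normexp background correction, a smaller fold than that bound, so its size depends on the background correction. Ccnf, a cyclin that targets proteins for degradation, rose by 1.06 ± 0.12 (limma adjusted p = 0.00140). The inhibitors Cdkn2a and Cdkn2b were too dim on every array to be tested. The list gave 9 higher and 2 lower with the pair numbered 2 left out, where Cdkn1a was lost. In that setting 5.46% of all tested features were called higher and 6.81% lower. With the pair numbered 3 left out the list gave 1 and 0 (2.78% and 4.37% of all tested features). The 1 gene called there was Cdkn1c, which entered the test only through the GGCT arrays.

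The DREAM complex represses cell cycle genes in quiescence. Of 13 tested genes tied to the RB family, other E2F factors or this complex, 6 rose and 0 fell (median 0.40). The shares over all tested features were 17.5% and 17.3%. These included the repressive E2f5 (0.77 ± 0.09), the pocket protein Rbl1 (0.77 ± 0.13) and the complex members Lin9 (0.97 ± 0.16) and Lin54 (0.63 ± 0.10), all at limma adjusted p = 0.00694 or lower. Mybl2 (0.70 ± 0.14, limma adjusted p = 0.0107) and Tfdp2 (0.40 ± 0.08, limma adjusted p = 0.0113) rose too. In the blocked fit 9 rose (27.3% of all tested features), against 1 when the pair numbered 2 (5.46%) or 3 (2.78%) was left out. Rbl1, Lin9 and Lin54 missed the threshold without either pair. Among 11 replication checkpoint genes 2 rose, among them Brca1 (0.63 ± 0.14, limma adjusted p = 0.0147), and 0 fell, a share near the background. Brca1 missed the threshold when control replicate 3 (limma adjusted p = 0.0614), the pair numbered 2 (limma adjusted p = 0.0511) or the pair numbered 3 (limma adjusted p = 0.138) was left out and when dim probes were kept. With the mean of its probes it differed by 0.29 (limma adjusted p = 0.145). The list had 0 calls without control replicate 3, without either pair and with dim probes kept. The kinase Wee1 (0.31) and the clamp subunit Rad1 (-0.40) did not pass (limma adjusted p = 0.0506 and 0.0544). Both did in the blocked fit (limma adjusted p = 0.0150 and 0.0259), where 6 rose and 1 fell (27.3% and 26.1% of all tested features).

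**Figure D5:**
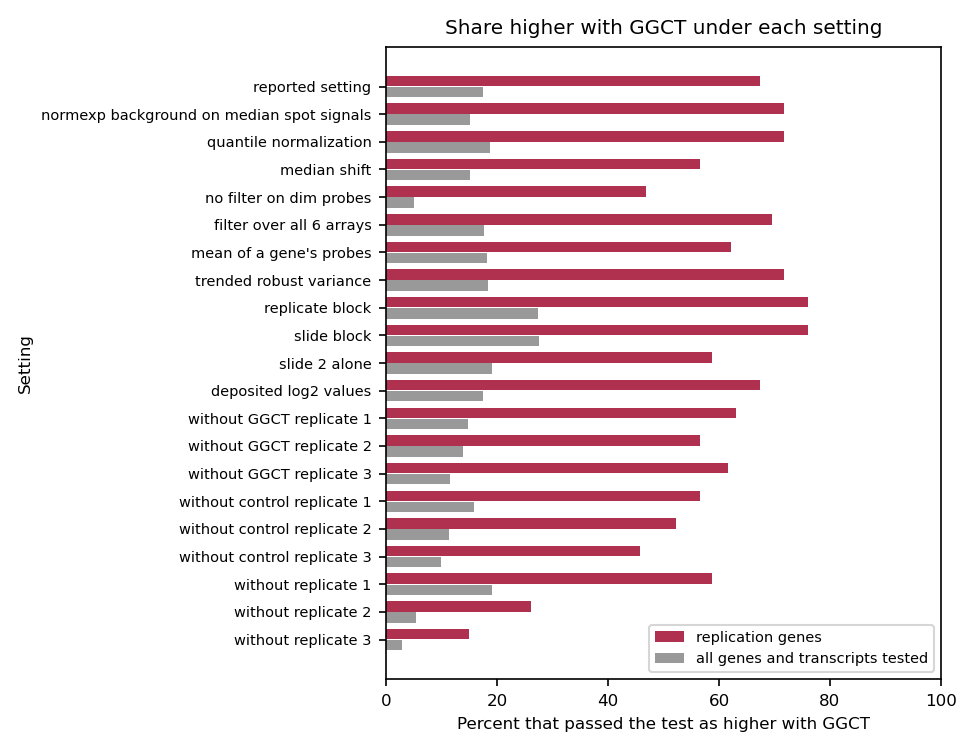
Percent of the tested replication genes (red) and of all genes and transcripts tested (grey) that passed the limma test as higher with GGCT, under the reported setting and each alternative. The red bar is longer than the grey one in each setting, and is 67.4% against 17.5% as reported. With the pair of arrays numbered 3 left out it is 14.9% against 2.78%. The 14.9% includes Ccne2, which entered that test only through the GGCT arrays.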

How the data were processed

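Intensity values came from Agilent Feature Extraction 12.1.0.3 scanner files of 6 Cy3-labelled arrays, which the software had background-subtracted within each array, per the file headers. The deposited series table holds log2 values equal to those log2 intensities minus a constant per array (median per column -3.88 to -3.70). Its scale and direction follow from that comparison, and no centring over arrays was seen. Control spots and outlier-flagged spots were left out, spots of a probe were averaged, and 56570 probes remained. Unversioned accessions matched to the RefSeq gene table (GRCm38.p6) named 34504 of them (60.99%). The array grid names another build, so gene coordinates were not used, and promoters carry their own build.

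The 75th percentile of log2 intensity was subtracted per array. Each gene was represented by its brightest probe, and entered the test where at least 1 group had the probe flagged above background by the scanner software in all 3 replicates. GGCT minus control was fitted with limma 3.58.1 in R 4.3.3 (lmFit, eBayes, 2-sided) over 23774 features without a block, and called at a Benjamini-Hochberg adjusted p under 0.05. The procedure was tested on simulated data. Where a group was not well above background, the fold is a bound set against the lowest level measured above background. The precision is limited by the 6 arrays.

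Same-numbered arrays deviated together across all tested features (correlations 0.731, 0.453 and 0.358). They also shared a slide, and arrays of different numbers were not compared. These values therefore cannot tell pairing by number from an effect of the slide. The reported fit has no block, and number and slide were used as blocks in alternatives. Slides, which hold both groups, partly overlap with the numbers. Blocked values are given where they change a call.

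Array values are given for up to 4 members per role with the smallest p and for members against the direction of their group, and in each further list for up to 4 genes with the smallest p and those called the other way. Other genes and values were chosen after they were seen. A gene that this rule names is not reported here. The members and all lists were chosen with earlier results of these data known. In all, 20 alternatives were run, among them quantile normalization, a median shift, normexp background with an offset of 50 on median spot signals (a mean signal column was not used here), other filters, probe rules, blocks and left-out arrays.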

Additional observations from a re-analysis of the deposited data

How the results depend on the processing

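The members called higher numbered 21 to 35 over the alternatives that kept at least 5 arrays or slide 2. Over those alternatives 4.96% to 27.6% of all tested features were called higher. Members lower numbered 0 in each alternative, though up to 2 were lower at an unadjusted limma p under 0.05. Leaving out 1 array, or both arrays of 1 number, gave 7 to 29 members higher, the lowest without both arrays of replicate 3. In these settings 2.78% to 19.1% of all tested features were called higher. Ccne2 was among the members called without GGCT replicate 3 and without both arrays of replicate 3. It entered those tests only through the GGCT arrays, so its call adds no support. The members' median difference stayed between 0.48 and 0.64 over the 20 alternatives, and on slide 1 alone, which allows no test, it was 0.51. The replicate block changed the call of Mcm2, Gins2, Pola1 and Rfc4 and of no other member, and gave 35 higher. Of 31 called members, 5 (Cdc6, Cdc7, E2f2, E2f8 and Uhrf1) passed in all 20 alternatives. Further replication genes higher numbered 12 with no filter on dim probes, where 4.96% of all tested features were called higher. They lay between 4 and 20 with arrays left out (2.78% to 19.1% of all tested features). Those lower numbered 4 with the replicate block (26.1% of all tested features lower) and 0 to 2 with arrays left out (4.37% to 19%). The counts without both arrays of a number rest on 4 arrays. Mcm4, not called, turned positive with quantile normalization (0.028) and on slide 2 alone, which is the same as leaving out both arrays of replicate 1 (0.026), and without GGCT replicate 3 (0.022) or control replicate 1 (0.00012), and ranged from -0.15 to 0.026 with arrays left out. Dscc1, not called, turned positive without GGCT replicate 3 (0.040) or both arrays of replicate 3 (0.032) and ranged from -0.10 to 0.040 with arrays left out. The cause of these turns was not tested. Among 24 further probes of members that were tested, 21 had the sign of the brightest probe.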

Other observations

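The run TTTGGCGCGAAA, in which E2F octamers overlap on opposite strands, was found on either strand in the RefSeq promoters of 4 genes: Mcm5, Mcm6, Mycn and Msh3. These genes were looked up after the run had been seen in the Mcm promoters. Mycn, a MYC family factor, rose by 1.64 ± 0.11 with GGCT (limma adjusted p = 0.000237), while Msh3, a mismatch repair gene, differed by -0.11 ± 0.11 (limma adjusted p = 0.490). Myc itself differed by -0.39 (limma adjusted p = 0.0776).

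Both partners of the kinase that fires origins, Cdc7 and Dbf4, were about 2-fold higher with GGCT, and both passed the threshold in all 20 alternatives. Their differences were 1.11 and 0.88 on slide 1 and 1.21 and 1.05 on slide 2. Among subunits of other complexes the values were less even, such as 0.95 for Gins1 against -0.14 and -0.18 for Gins3 and Gins4, and 1.00 for Chaf1a against 0.23 for Chaf1b, and these contrasts between subunits were not tested.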
